A study of Mus musculus with 6 samples.

Results

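Mitochondrial DNA (mtDNA) of the mouse carries 37 genes, and all 37 had a row in the deposited table of 56691 gene rows, where they were chosen by their chromosome label, MT. They were 13 protein genes, 2 ribosomal RNA (rRNA) genes and 22 transfer RNA (tRNA) genes. Start, end, strand and class were the same in the table and in GENCODE M21, an annotation of GRCm38 (mm10), for all 37. The libraries came from primary cardiomyocytes isolated from the hearts of neonatal mice and cultured with an adenovirus of serotype 5. In the HMGB2 group (n = 3) the virus was Ad5-cTNT-HMGB2, which carries HMGB2, a chromatin protein of the high mobility group. In the vector group (n = 3) it was Ad5-cTNT without the insert, so both groups had received virus and differed in the insert. cTNT stands for cardiac troponin T, whose promoter is active in cardiomyocytes, while RNA was taken from whole cultures. The series title names metabolic reprogramming driven by MTA2, a chromatin remodelling subunit, and the mtDNA genes are described here with that question in view. The sources used here do not state the age in days, the dose of virus or the time to RNA collection.

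The mitochondrial genome is a circle that is read from promoters in a control region without genes, as long transcripts of each strand. Most genes lie on 1 strand, in the order mt-Tf, mt-Rnr1, mt-Tv, mt-Rnr2, mt-Tl1, mt-Nd1 and onward to mt-Cytb, and tRNA genes stand between the others; cutting the tRNAs out of the long transcript releases the rRNAs and mRNAs. The proteins are subunits of respiratory complex I (Nd genes), complex III (mt-Cytb), complex IV (Co genes) and ATP synthase (Atp genes). All other subunits, like every protein factor that copies, reads and translates mtDNA, are encoded in the nucleus. Heart muscle is rich in mitochondria and draws most of its energy from this chain.

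Of the 17 mtDNA genes that could be tested, 1 was higher with HMGB2 and 4 were lower at an edgeR adjusted p under 0.05, where 14.4% of all genes tested were higher and 10.8% lower. The 12S rRNA gene mt-Rnr1 was 1.62-fold higher. The protein genes mt-Cytb, mt-Nd4 and mt-Atp6 and the proline tRNA gene mt-Tp were lower, by 16.0% to 28.1% in mean CPM (counts scaled to a common library size). The genes with the highest level per length, mt-Co1 and mt-Nd1, did not pass the test. Over the same libraries, 17 of 74 nuclear genes of respiratory chain subunits were higher and 0 were lower.

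The junction of the rRNA genes shows how closely the genes are packed. The sequence below, from GENCODE M21 transcripts on GRCm38, runs from the end of mt-Rnr1 through the valine tRNA gene mt-Tv (capitals) into mt-Rnr2 with no base between them.
mt-Rnr1 end, mt-Tv, mt-Rnr2 start, chrM:985-1133, plus strand: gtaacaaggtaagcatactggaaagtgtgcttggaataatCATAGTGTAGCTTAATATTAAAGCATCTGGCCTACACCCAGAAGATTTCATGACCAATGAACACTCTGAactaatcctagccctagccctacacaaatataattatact
Of the 22 tRNA genes, 18 had a gene within 6 bases on both sides, as mt-Tv does, and these 18 had 0 counts in all 6 libraries. The genes mt-Tf and mt-Tn also had 0 counts in all libraries. In each library, 0 counts allow a level of up to 3 counts, which is 0.181 to 0.24 CPM. The limit covers counting error only. The 2 tRNA genes with counts were the cysteine tRNA gene mt-Tc, which stands 32 bases from mt-Tn, and the proline tRNA gene mt-Tp, the last gene before the control region. A free side did not go with counts in every case, since mt-Tn has the same gap of 32 bases and mt-Tf is the first gene after the control region. The genes mt-Tp and mt-Tc lie on the minus strand and are printed in their own direction, as they are the only tRNA genes with values.
mt-Tp, chrM:15356-15422, minus strand: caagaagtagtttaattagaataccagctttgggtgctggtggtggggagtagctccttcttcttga
mt-Tc, chrM:5192-5257, minus strand: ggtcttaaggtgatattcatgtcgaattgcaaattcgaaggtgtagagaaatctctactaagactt

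A second feature of sequence bears on the protein genes. The nuclear genome holds copies of mtDNA, and 10 annotated gene rows outside mtDNA were found to share runs of 100 bases with protein genes. On chromosome 1 there were 7 of them, within chr1:24611535-24616197, all on the minus strand and in the order of mtDNA: Gm29216 (a copy of the end of mt-Co1), Gm28661 (mt-Co2), Gm10925 (mt-Atp6), Gm28437 (mt-Co3), Gm28438 (mt-Nd3), Gm10222 (mt-Nd4l) and Gm28439 (the first 876 bases of mt-Nd4). In 5 of the 7 no base differed from mtDNA. Gm28438 differed from mt-Nd3 in 1 of 345 bases, T3C, and Gm29216 differed from mt-Co1 in 6 of 492 bases: T1056A, C1057T, A1059G, A1060G, C1062A and A1066T. Positions count from 1 at the first base of the mtDNA gene, whose base is written first. The stretches with these differences follow, with the differing bases in capitals, since they are the only bases in these copies that tell the genes apart.
mt-Nd3, chrM:9459-9491, plus strand: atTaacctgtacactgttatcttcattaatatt
Gm28438, chr1:24613087-24613119, minus strand: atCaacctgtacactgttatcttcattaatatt
mt-Co1, chrM:6381-6423, plus strand: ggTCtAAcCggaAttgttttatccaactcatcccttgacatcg
Gm29216, chr1:24616155-24616197, minus strand: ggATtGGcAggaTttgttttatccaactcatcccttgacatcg
After the last of these differences, 479 bases of mt-Co1 had the same letters in Gm29216. The remaining 3 copies lay on chromosome 2 and were less alike: Gm13340 matched mt-Co1 at 97.6% of bases, Gm13339 matched part of mt-Nd2 at 96.7%, and Gm13341 corresponded to mt-Co2.

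The levels of the protein genes fell into 2 groups, and nearly all of the sequence of most low genes was shared. FPKM, which divides fragment counts by gene length and library total, allows levels of different genes to be compared per length. Of the 13 protein genes, 7 (mt-Nd1, mt-Nd2, mt-Co1, mt-Nd4, mt-Nd5, mt-Nd6 and mt-Cytb) had means of 2140 to 14061 FPKM over the 6 libraries. The other 6 (mt-Co2, mt-Atp8, mt-Atp6, mt-Co3, mt-Nd3 and mt-Nd4l) had means of 5.44 to 127 FPKM and held 0.326% of the counts of mtDNA protein genes. In 5 of these 6, between 97.6% and 99.9% of all windows of 100 bases also occurred in a transcript outside mtDNA. The share of such windows was 60.8% in mt-Nd4, 30.8% in mt-Co1, 3.19% in mt-Nd2 and 0% in the other 4 abundant genes and both rRNA genes. The sources used here do not state how reads that match more than 1 place were counted, and the levels of the 6 low genes were therefore treated as uncertain.

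The exception was mt-Atp8, which encodes a small membrane subunit of ATP synthase. None of its windows occurred in another annotated transcript, yet its mean was 23.9 FPKM. On chromosome 1, a gap of 233 bases without an annotated copy lies between Gm10925 and Gm28661, and the stretch of mtDNA between the copied parts of mt-Co2 and mt-Atp6 is also 233 bases long. The sequence of this gap was not analysed here. In mtDNA, mt-Atp8 ends 43 bases inside mt-Atp6, and the overlap is shown in capitals because reads across it can belong to either gene.
mt-Atp8 and the start of mt-Atp6, chrM:7766-8017, plus strand: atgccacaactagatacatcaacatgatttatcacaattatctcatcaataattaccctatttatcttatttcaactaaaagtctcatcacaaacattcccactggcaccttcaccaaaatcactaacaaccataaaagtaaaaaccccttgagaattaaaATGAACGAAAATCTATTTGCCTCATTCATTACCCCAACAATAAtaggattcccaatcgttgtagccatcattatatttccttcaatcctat
A further overlap of 7 bases joins mt-Nd4l to mt-Nd4, and 14 bases of mt-Nd5 and mt-Nd6 overlap on opposite strands.

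**Figure D1:**
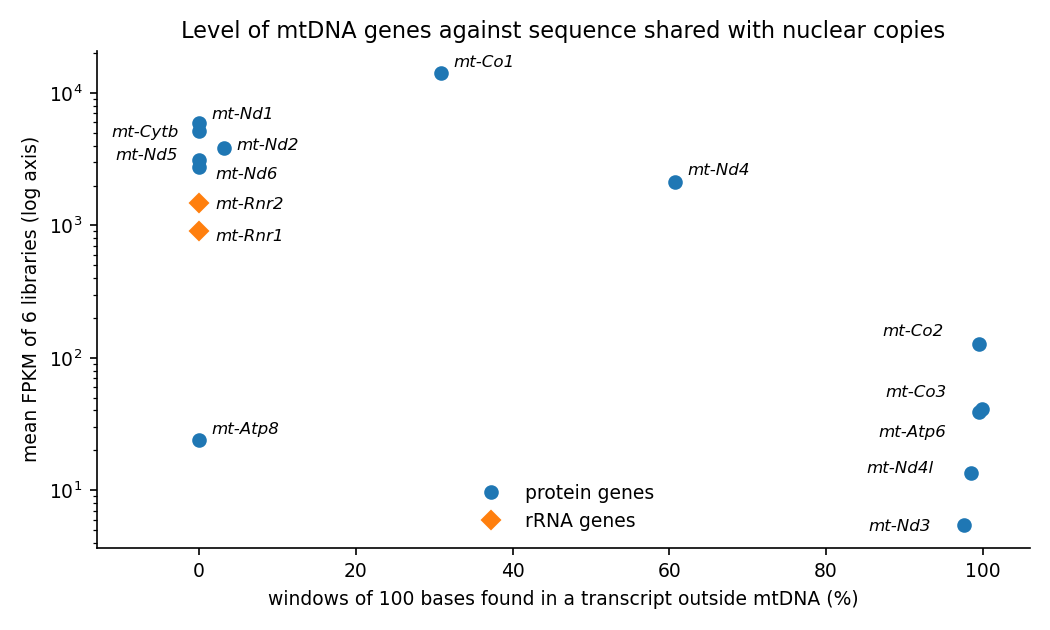
Mean FPKM of 6 libraries (log axis) of the 13 protein and 2 rRNA genes of mtDNA against the percentage of their 100-base windows that occur in a transcript outside mtDNA; each point is 1 gene. The 5 genes with at least 97.6% shared windows lie at 5.44 to 127 FPKM, mt-Atp8 lies at 23.9 FPKM without shared windows, and the other 9 lie at 907 FPKM or above.

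Library totals were 14497676 to 16618365 counts with HMGB2 and 12498215 to 14101385 counts with the vector, and 15429 genes passed the filter on low counts. Hmgb2 itself averaged 184 ± 10.9 CPM with HMGB2 and 42.6 ± 5.59 CPM with the vector (SD, n = 3 each; log2 fold change 2.11, SE 0.10, edgeR adjusted p = 1.89e-06). The 8 cardiomyocyte markers, led by troponin and myosin genes, summed to 14076 to 17197 CPM with HMGB2 and 8445 to 10722 CPM with the vector, and 6 of 8 were higher (over all genes, 14.4% were higher and 10.8% lower). Markers of other cells were present too, and none was at 0: summed CPM with HMGB2 and with the vector were 4196 to 4281 and 4742 to 4811 for fibroblasts (2 of 7 lower), 25.6 to 30.1 and 38.3 to 40.8 for macrophages (3 of 6 lower), 2121 to 2214 and 2440 to 2528 for endothelial cells (2 of 6 lower), and 443 to 521 and 426 to 532 for smooth muscle cells and pericytes (1 of 6 higher). The part of this marker difference in the mtDNA results was not tested; in bulk RNA, fewer cells of a type and less RNA per cell cannot be told apart. HMGB2 library 3 and vector library 1 stood apart from the rest of their groups, with mt-Nd5 lower by log2 values of -0.29 and -0.49 and the median nuclear respiratory chain gene higher by 0.27 and 0.37, so results are also given without both. They were singled out from these same data, which lowers the spread that remains, so calls without them are descriptions and not independent support. The labels do not say whether libraries came from separate cultures, so p-values rest on the spread of these libraries alone, part of which may be technical.

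Transcripts of mtDNA took 4.96%, 5.01% and 4.96% of the counts in HMGB2 libraries 1 to 3, and 5.07%, 5.37% and 5.14% in vector libraries 1 to 3. All HMGB2 libraries were below all vector libraries, at means of 4.98% ± 0.0311 and 5.20% ± 0.158 (SD, n = 3 each; two-sided exact permutation p = 0.1, the smallest that 3 against 3 can give). The protein genes and the rRNA genes differed in opposite directions. The 13 protein genes together took 4.61%, 4.65% and 4.58% with HMGB2, against 4.76%, 5.08% and 4.87% with the vector, a difference of -0.285 percentage points in the means (exact permutation p = 0.1). The 2 rRNA genes took 0.344%, 0.351% and 0.366% with HMGB2, against 0.303%, 0.289% and 0.270% with the vector (ratio of means 1.23, exact permutation p = 0.1). The groups did not overlap in either class. Within mtDNA counts, rRNA held 6.94%, 7.01% and 7.39% with HMGB2 and 5.97%, 5.37% and 5.25% with the vector. The tRNA genes took 0.00726% to 0.00826% with HMGB2 and 0.00864% to 0.00997% with the vector, nearly all of it from mt-Tp.

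The order of levels per length was led by mt-Co1, the catalytic core of complex IV, with a mean of 14061 FPKM over 6 libraries and a range of 13786 to 14593. It was above every other mtDNA gene in 6 of 6 libraries and also held the highest count of all 56691 rows, with mt-Cytb, mt-Nd5 and mt-Nd1 at ranks 4, 5 and 6. Next per length came mt-Nd1 at 5902 FPKM and mt-Cytb, the cytochrome b of complex III, at 5186 FPKM. Their ranges overlapped, and mt-Nd1 was above mt-Cytb in 4 of 6 libraries. They were followed by mt-Nd2 at 3851, mt-Nd5 at 3140, mt-Nd6 at 2783 and mt-Nd4 at 2140 FPKM, all subunits of the membrane arm of complex I. In that run mt-Nd5 and mt-Nd6 changed places in 2 of 6 libraries. The windows shared with transcripts outside mtDNA were 60.8% in mt-Nd4 and 30.8% in mt-Co1. Their levels therefore depend on how reads with several matches were counted, and the place of mt-Nd4 in this order is uncertain. The rRNA genes had lower levels than these 7 protein genes, with 1479 FPKM for mt-Rnr2 (16S) and 907 FPKM for mt-Rnr1 (12S). The sources used here do not state whether rRNA was removed, so these are levels in the libraries. Between the rRNA genes stood mt-Tp at 1280 FPKM, below mt-Rnr2 in 5 of 6 libraries. The low genes followed, with mt-Co2 at 127, mt-Co3 at 40.7, mt-Atp6 at 38.8, mt-Atp8 at 23.9, mt-Nd4l at 13.4, mt-Tc at 13.2 and mt-Nd3 at 5.44 FPKM.

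**Figure D2:**
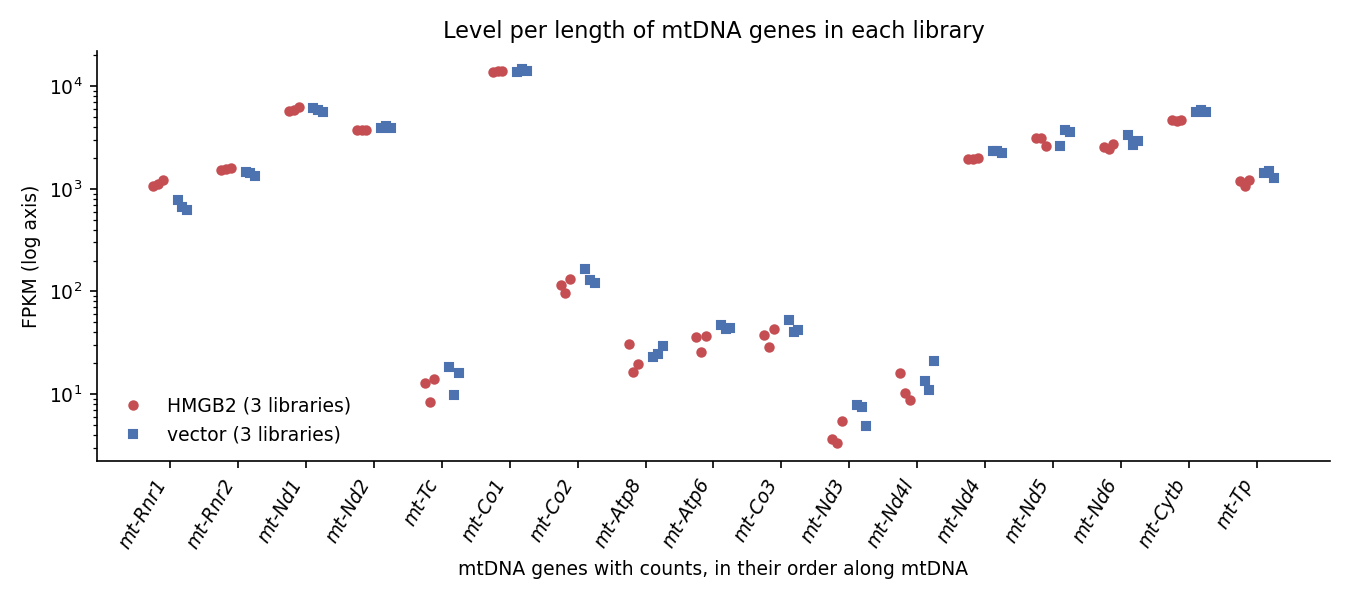
FPKM on a log axis of the 17 mtDNA genes with counts, in their order along mtDNA, with 1 point for each of 3 HMGB2 libraries (circles) and 3 vector libraries (squares). The run from mt-Co2 to mt-Nd4l, and mt-Tc, lies at 167 FPKM or below in every library, and the other genes lie at 621 FPKM or above.

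Of the 37 genes, 17 entered the test across all genes and 20 tRNA genes did not. Beside the 1 higher and 4 lower genes, 12 did not pass. A negative log2 fold change was found in 14 of the 17. Their median, and that of the 13 protein genes, was -0.25, beside -0.0022 over all genes tested. All HMGB2 libraries were below all vector libraries in 6 of the 17 (18.9% of all genes tested) and above in 2 (21.6% of all genes tested), namely the 2 rRNA genes. The count of 4 lower genes was 1 without HMGB2 library 2, 1 without vector library 2 and 2 without HMGB2 library 1. Of all 15429 genes, 886, 970 and 869 were lower in these comparisons. Without vector 1 and HMGB2 3 together, 2 of 17 (both rRNA genes) were higher and 9 were lower, while 20.9% of all genes were higher and 19.2% lower in that comparison. The 9 include mt-Nd5, whose low level is part of what sets these libraries apart, so the count is a description only.

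Of the rRNA genes, mt-Rnr1 encodes the 12S rRNA, the RNA of the small subunit of the mitochondrial ribosome. It had 1009, 1053 and 1149 CPM in HMGB2 libraries 1 to 3, against 745, 640 and 598 CPM in vector libraries 1 to 3. The lowest HMGB2 library was above the highest vector library. This was a fold of 1.62 (log2 fold change 0.70, SE 0.10, adjusted p = 0.000713 in edgeR). It was past the threshold under each of 17 alternative settings, between 0.63 and 0.79 with a highest adjusted p of 0.0119. All of these settings use the same libraries. The sources used here do not state whether rRNA was removed, and the part of such a step in this difference was not tested. The 16S rRNA gene mt-Rnr2, for the large subunit, had 2427, 2460 and 2464 CPM with HMGB2, against 2292, 2294 and 2125 CPM with the vector. Here too the groups did not overlap, but the difference was small (log2 fold change 0.13, SE 0.07, edgeR adjusted p = 0.191). Without vector 1 and HMGB2 3 it was 0.15 with an SE of 0.03 and past the threshold (edgeR adjusted p = 0.000602). That call is a description only, since these libraries were singled out from the same data.

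Because the rRNA genes lie on the same transcript, their ratio was taken within each library. The FPKM of mt-Rnr1 over that of mt-Rnr2 was 0.689, 0.709 and 0.772 with HMGB2, against 0.538, 0.462 and 0.467 with the vector. The groups did not overlap, at means of 0.723 ± 0.0437 and 0.489 ± 0.0426 (SD, n = 3 each; two-sided exact permutation p = 0.1). Relative to mt-Nd1, the next protein gene on the strand, mt-Rnr1 had ratios of 0.182, 0.188 and 0.196 with HMGB2, against 0.128, 0.113 and 0.111 with the vector. For mt-Rnr2 the ratios to mt-Nd1 were 0.265, 0.265 and 0.254 with HMGB2, against 0.237, 0.244 and 0.237 with the vector. Each of these ratios needs no scaling between libraries, and in each the HMGB2 libraries were above the vector libraries. The part of any rRNA removal in these ratios was not tested either.

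Complex I takes electrons from NADH and has 7 subunits from mtDNA. Its first gene on the strand, mt-Nd1, had 5546, 5604 and 5861 CPM with HMGB2, against 5848, 5680 and 5413 CPM with the vector. The groups overlapped (log2 fold change 0.006, SE 0.07, edgeR adjusted p = 0.961), and the sign was negative under 4 alternatives. For mt-Nd2 the values were 3887, 3875 and 3869 CPM with HMGB2, against 4054, 4279 and 4074 CPM with the vector. Every HMGB2 library was below the vector libraries, by a log2 value of -0.09 that did not pass (SE 0.06, edgeR adjusted p = 0.334). The difference passed only without vector 1 and HMGB2 3 (-0.10, edgeR adjusted p = 0.00360). That call is a description only, since these libraries were singled out from the same data. The gene mt-Nd4 had 2690, 2708 and 2699 CPM with HMGB2, against 3208, 3290 and 3142 CPM with the vector. The HMGB2 libraries lay close together and all below the vector libraries (log2 fold change -0.25, SE 0.06, adjusted p = 0.0183 in edgeR). The call on mt-Nd4 ended without HMGB2 1, HMGB2 2 or vector 2 (adjusted p 0.0775, 0.0839 and 0.0917) and with limma on FPKM (0.108 and 0.118 with pseudocounts of 0.1 and 1). It also ended with the replicate number as a further term (edgeR adjusted p = 0.135). The mt-Nd4 copy Gm28439, with no base different, moved the same way (log2 fold change -0.48, edgeR adjusted p = 0.0150), a call that ended in 3 of 16 alternatives. Within the 876 copied bases, reads of gene and copy cannot be told apart, so the copy is not a second observation.

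The next gene, mt-Nd5, had the largest SE of the 7 abundant protein genes. It had 5723, 5765 and 4682 CPM with HMGB2, against 4802, 6970 and 6531 CPM with the vector. HMGB2 3 and vector 1 were the lowest of their groups, and the groups overlapped (log2 fold change -0.18, SE 0.14, edgeR adjusted p = 0.391). Without vector 1 the log2 fold change was -0.32, and without both libraries it was -0.23; since low mt-Nd5 is part of what sets these libraries apart, no test is given for these values. The gene mt-Nd6 is the protein gene of the other strand and overlaps the end of mt-Nd5. It had 1325, 1281 and 1397 CPM with HMGB2, against 1738, 1418 and 1525 CPM with the vector. All HMGB2 libraries were below (log2 fold change -0.23, SE 0.09, edgeR adjusted p = 0.0922). Of 17 alternatives the call was made in 1, without vector 1 and HMGB2 3 (-0.17, edgeR adjusted p = 0.000157). As these libraries were singled out from the same data, that call is a description only. The sources used here do not state the strand setting of the counts, so reads of mt-Nd6 and of the opposite strand cannot be told apart.

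The low complex I genes mt-Nd3 and mt-Nd4l did not pass the test. The counts of mt-Nd3 were 21, 17 and 31 with HMGB2, against 34, 36 and 24 with the vector (log2 fold change -0.70, SE 0.30, edgeR adjusted p = 0.122). The copy Gm28438, which has 1 different base, held 9.83 times as many counts on average, with 371, 287 and 337 with HMGB2 and 148, 251 and 208 with the vector. The copy differed in the opposite direction, with all HMGB2 libraries above all vector libraries (log2 fold change 0.47, SE 0.15, edgeR adjusted p = 0.0436), and this call ended in 6 of 16 alternatives. When the counts of gene and copy were added, an alternative chosen after seeing the data, the log2 fold change was 0.36 (edgeR adjusted p = 0.0821). As the copy holds most of the summed counts, the sign of the sum follows the copy, and it does not show to which row the reads belong. For mt-Nd4l the values were 4.81, 3.03 and 2.55 CPM with HMGB2, against 4.01, 3.29 and 6.22 CPM with the vector, and the groups overlapped (edgeR adjusted p = 0.406).

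Complex III passes electrons to cytochrome c, and mt-Cytb is its 1 subunit from mtDNA. This gene, which shares no window with a nuclear copy, had 5309, 5252 and 5241 CPM with HMGB2, against 6503, 6862 and 6529 CPM with the vector. The highest HMGB2 library lay well below the lowest vector library, and the 3 HMGB2 values were close together. On the log2 scale the difference was -0.33 (SE 0.06, adjusted p = 0.00481 in edgeR), and the call held without any 1 library. With limma on FPKM it missed the threshold (adjusted p 0.054 and 0.0619 with pseudocounts of 0.1 and 1). With the replicate number as a further term it missed too (edgeR adjusted p = 0.0661). Within libraries, the FPKM of mt-Cytb over that of mt-Nd1 was 0.801, 0.784 and 0.748 with HMGB2, against 0.930, 1.01 and 1.01 with the vector, with no overlap (exact permutation p = 0.1).

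In complex IV, which reduces oxygen, mt-Co1 had 21400, 21938 and 21305 CPM with HMGB2, against 21345, 22909 and 21725 CPM with the vector. The groups overlapped (log2 fold change -0.03, SE 0.06, edgeR adjusted p = 0.783), and the sign turned without vector 2 (0.00086). Neither of the other core subunits, mt-Co2 and mt-Co3, passed the test. With HMGB2, mt-Co2 had 66.8 to 90.1 CPM, against 82.9 to 114 CPM with the vector (log2 fold change -0.28, SE 0.14, edgeR adjusted p = 0.177). For mt-Co3 the range was 22.8 to 33.0 CPM with HMGB2 and 32.1 to 41.4 CPM with the vector (log2 fold change -0.32, SE 0.15, edgeR adjusted p = 0.156). Both were past the threshold without vector 1 and HMGB2 3, at edgeR adjusted p-values of 0.00571 and 0.0193. As these libraries were singled out from the same data, those calls are descriptions only. Both also passed without the filter on low counts, at edgeR adjusted p-values of 0.0312 and 0.0340. Their identical copies had negative values as well, with log2 fold changes of -0.36 for Gm28661 and -0.38 for Gm28437 that did not pass. Reads of these genes and their copies cannot be told apart, so the copies are not second observations.

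ATP synthase has 2 subunits from mtDNA. The gene mt-Atp6, for subunit a of the proton channel, had 24.3, 17.6 and 24.6 CPM with HMGB2, against 32.3, 29.7 and 30.4 CPM with the vector. The groups did not overlap (log2 fold change -0.47, SE 0.13, edgeR adjusted p = 0.0258). The call ended without HMGB2 2, vector 2 or vector 3 (adjusted p 0.0604, 0.0661 and 0.0662). Its copy Gm10925, with no base different, had a log2 fold change of -0.47 too (adjusted p = 0.0213 in edgeR, a call that ended in 4 of 16 alternatives), and which of the pair a read came from cannot be told apart. The gene mt-Atp8 overlapped between groups, with 3.38 to 6.25 CPM with HMGB2 and 4.73 to 6.01 CPM with the vector (edgeR adjusted p = 0.566).

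Of the tRNA genes, mt-Tp had 79.5, 72.1 and 80.6 CPM with HMGB2, against 96.8, 101 and 86.1 CPM with the vector. All HMGB2 libraries were below the vector libraries (log2 fold change -0.29, SE 0.08, edgeR adjusted p = 0.0331). The call ended without HMGB2 1, HMGB2 2 or vector 2 (adjusted p 0.0881, 0.140 and 0.130) and with limma on FPKM (0.116 and 0.122). It also ended with the replicate number as a further term (edgeR adjusted p = 0.126). Mature tRNA and longer precursors that hold the 67 bases of mt-Tp cannot be told apart in these counts. As the strand setting is not stated, reads of mt-Tp or mt-Tc and of the opposite strand cannot be told apart either. The counts of mt-Tc were 14, 8 and 15 with HMGB2 and 15, 9 and 15 with the vector, and no difference was detectable at this depth (log2 fold change -0.33, SE 0.38, edgeR adjusted p = 0.574).

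**Figure D3:**
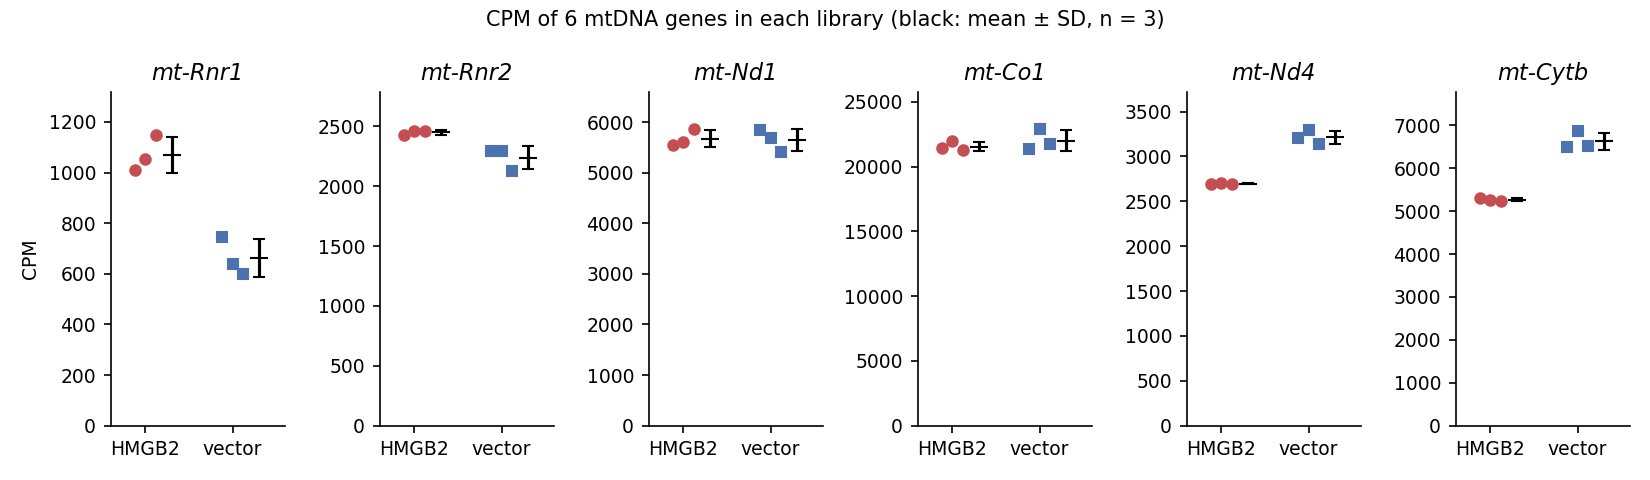
CPM of mt-Rnr1, mt-Rnr2, mt-Nd1, mt-Co1, mt-Nd4 and mt-Cytb in 3 HMGB2 libraries (circles) and 3 vector libraries (squares), on axes that start at 0, with means ± SD in black. The HMGB2 libraries are above the vector libraries in both rRNA genes, overlap them in mt-Nd1 and mt-Co1, and are below them in mt-Nd4 and mt-Cytb.

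Members were also set against each other within the 13 protein genes, which needs no scaling to nuclear genes. The share of mt-Co1 was 46.5%, 47.1% and 47.1% with HMGB2, against 44.8%, 44.4% and 44.2% with the vector. For mt-Cytb it was 11.5%, 11.3% and 11.6% with HMGB2, against 13.6%, 13.3% and 13.3% with the vector. The share of mt-Nd4 was 5.85%, 5.82% and 5.97% with HMGB2, against 6.73%, 6.38% and 6.40% with the vector. These 3 and mt-Atp6 were the 4 of 13 whose groups did not overlap, each at an exact permutation p of 0.1 and 0.325 after Benjamini-Hochberg adjustment over 13, so none passes. In CPM, 18.9% of all genes tested had all HMGB2 libraries below and 21.6% all above, so 4 of 13 is no more than over all genes. The number was 7 without vector 1 and 8 without vector 1 and HMGB2 3, where fewer libraries make groups without overlap more likely. A share can only grow where another shrinks, and mt-Co1, the largest, was above while its CPM overlapped.

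Position along mtDNA was looked at after the values were seen. Among the 8 genes of the mt-Rnr1 strand with a mean of at least 10000 counts, log2 fold changes were lower the farther a gene lay from mt-Rnr1, with 2 exceptions among neighbours. They were 0.70 for mt-Rnr1, 0.13 for mt-Rnr2, 0.006 for mt-Nd1, -0.09 for mt-Nd2, -0.03 for mt-Co1, -0.25 for mt-Nd4, -0.18 for mt-Nd5 and -0.33 for mt-Cytb. The limit on counts left out the low genes between mt-Co1 and mt-Nd4, whose levels were treated as uncertain. Their values were -0.28 (mt-Co2), -0.21 (mt-Atp8), -0.47 (mt-Atp6), -0.32 (mt-Co3), -0.70 (mt-Nd3) and -0.38 (mt-Nd4l). Of these, mt-Atp6, mt-Nd3 and mt-Nd4l were lower than mt-Cytb though nearer to mt-Rnr1. The order thus does not hold with the low genes included. Spearman's rho between log2 fold change and gene midpoint was -0.95 over the 8 genes (Pearson's r -0.80) and -0.89 over the 6 protein genes among them (Pearson's r -0.92). Over the alternatives, rho stayed between -0.98 and -0.88 for the 8 genes and between -0.94 and -0.71 for the 6 protein genes. With gene length, rho was -0.31. The genes share the same 6 libraries and neighbours share transcripts, so these are descriptions and not tests. Taken per library, the slope of log2 FPKM relative to the mean of the 6 libraries was -0.0174, -0.0203 and -0.0346 per kilobase with HMGB2, against 0.00613, 0.0325 and 0.0337 with the vector. Because each gene is set against its mean over the 6 libraries, the group means must be opposite (-0.0241 and 0.0241). Their signs thus show a difference between groups and not a gradient in each. The groups did not overlap. Measure and genes were chosen after seeing the data, so no test is given.

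**Figure D4:**
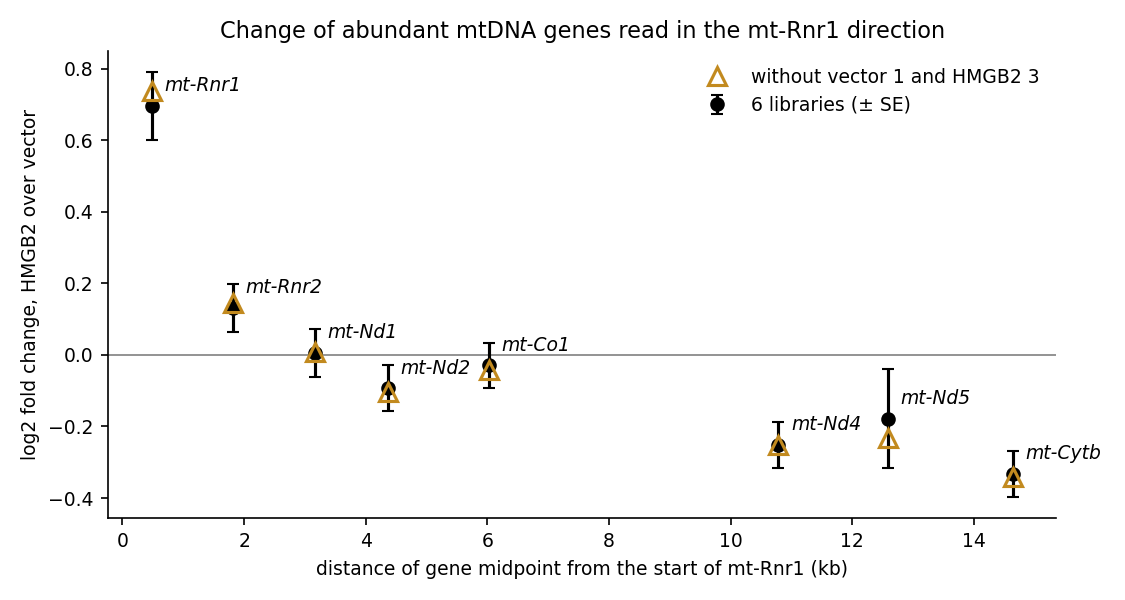
Log2 fold change (HMGB2 over vector) of the 8 mtDNA genes of the mt-Rnr1 strand with at least 10000 mean counts against the distance of the gene's midpoint from the start of mt-Rnr1 in kilobases. The low genes between mt-Co1 and mt-Nd4 are not shown and do not follow this order. Filled circles with bars are all 6 libraries ± SE and open triangles leave out vector 1 and HMGB2 3; values run from 0.70 for mt-Rnr1 to -0.33 for mt-Cytb.

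The respiratory chain joins these proteins to nuclear ones. Of 74 nuclear genes of the same complexes, 17 were higher, 0 lower and 57 not past the threshold, where 14.4% of all genes were higher and 10.8% lower. Of 36 nuclear complex I genes tested, 9 were higher and 0 lower (median log2 fold change 0.25); the 5 with the smallest p were Ndufs3 (0.39), Ndufab1 (0.33), Ndufv3 (0.42), Ndufs7 (0.55) and Ndufs1 (0.35), with edgeR adjusted p-values of 0.0113 to 0.0228. Of 9 in complex III, 3 were higher (median 0.31): Uqcrc2, a core protein (0.47, adjusted p = 0.00123), Uqcrh (0.48) and Cyc1, cytochrome c1 (0.31). Of 14 in complex IV, 1 was higher, a smaller share than over all genes (median 0.18): Cox6a2, a subunit of heart and skeletal muscle (0.59, adjusted p = 0.00218), while Cox4i1 (0.08) and Cox6b1 (0.24), those with the highest means, did not pass. Of 15 in ATP synthase, 4 were higher (median 0.23): Atp5a1 (0.44), Atp5c1 (0.47), Atp5g1 (0.46) and Atp5g3 (0.40). The count of 17 higher among 74 was 7, 10 and 9 without HMGB2 libraries 1, 2 and 3. It was 54, 4 and 4 without vector libraries 1, 2 and 3. Over all 15429 genes, 1558, 1570 and 1969 were higher without HMGB2 1, 2 and 3. The numbers were 2495, 1590 and 1681 without vector 1, 2 and 3. Without vector 2 or vector 3, 4 of 74 was thus a smaller share than over all genes. The count among the 74 was 57 without vector 1 and HMGB2 3 together, where 20.9% of all genes were higher. High nuclear subunits are part of what sets these libraries apart. The count was 30 without the filter on low counts (2432 of all 31188 genes). It was 11 with limma on FPKM at either pseudocount (2118 and 2141 of all 15429). The calls on Uqcrh, Cyc1 and Atp5g3 each ended in 8 of 17 alternatives, that on Ndufs1 in 5, that on Atp5g1 in 4, and those on Ndufs3, Ndufab1, Ndufv3 and Ndufs7 in 3 each. Cox6a2, Uqcrc2, Atp5a1 and Atp5c1 were past the threshold in all 17 alternatives. The cardiomyocyte markers were higher in the same HMGB2 libraries, as given above. Within groups, HMGB2 3 and vector 1 had the lowest marker sums (14076 and 8445 CPM). The same libraries had the highest shares of nuclear subunits in their groups (1.48% and 1.25% of counts). The part of the markers in these counts was not tested.

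Summed over genes, the log2 ratio of mtDNA-encoded to nuclear-encoded respiratory chain counts was 1.87, 1.92 and 1.64 with HMGB2, against 1.93, 2.36 and 2.30 with the vector. All HMGB2 libraries were below all vector libraries, though HMGB2 2 and vector 1 nearly met. The means were 1.811 ± 0.154 with HMGB2 and 2.195 ± 0.229 with the vector (SD, n = 3 each), a difference of -0.38 (two-sided exact permutation p = 0.1). The nuclear subunits took 1.26%, 1.23% and 1.48% of counts with HMGB2, against 1.25%, 0.992% and 0.990% with the vector, and there the groups overlapped.

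**Figure D5:**
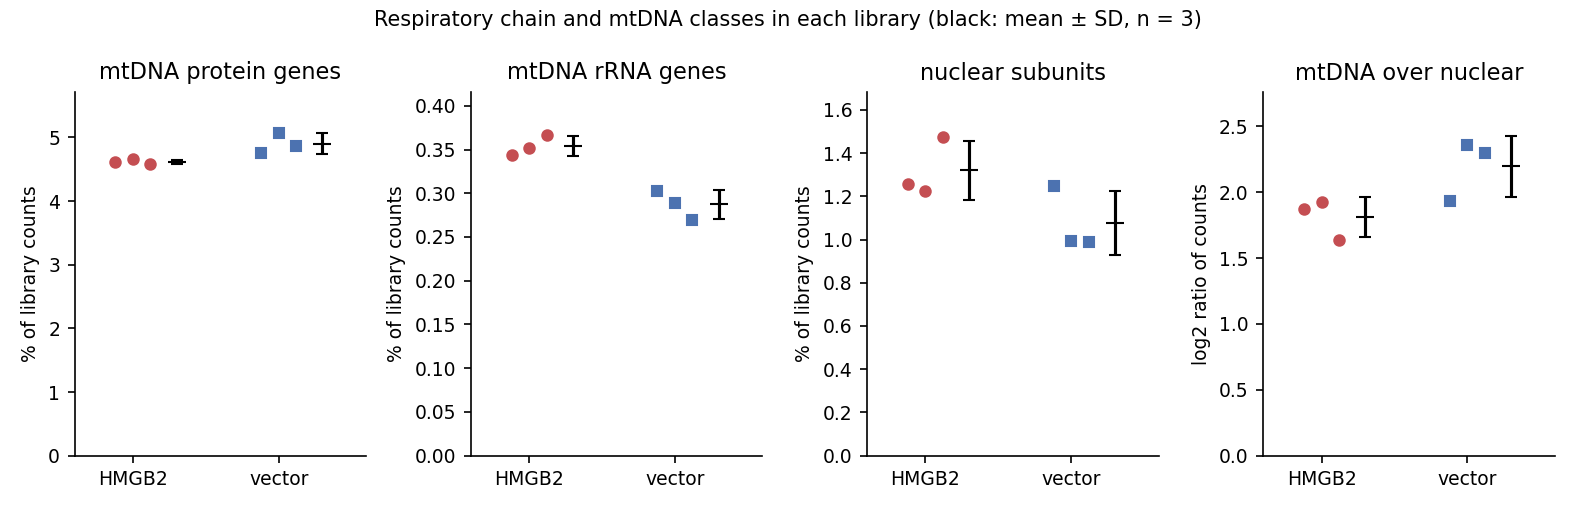
Percentage of library counts from mtDNA protein genes, mtDNA rRNA genes and nuclear respiratory chain genes, and the log2 ratio of mtDNA-encoded to nuclear-encoded respiratory chain counts, in 3 HMGB2 libraries (circles) and 3 vector libraries (squares), with means ± SD in black. The HMGB2 libraries are below the vector libraries for mtDNA protein genes (4.58% to 4.65% and 4.76% to 5.08%) and the ratio, above them for rRNA, and overlap them for nuclear subunits.

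Lists of nuclear genes linked to mtDNA held 112 genes that were tested. They include factors that work on mtDNA or its RNA and also genes with an indirect link, such as Ppargc1a. Counts over these lists are therefore not counts of mtDNA machinery alone. Of the 112, 25 were higher and 13 lower, with a median log2 fold change of 0.12. Over all genes tested, 14.4% were higher and 10.8% lower, and the share of lower genes here was close to that. Without vector 1 and HMGB2 3 together, 33 were higher and 12 lower, where 20.9% of all genes were higher and 19.2% lower. The share of lower genes was thus smaller there than over all genes. Of 16 genes on the list for transcription, which also holds coactivators and a nuclear receptor, 3 were higher, near the share over all genes. On the same list 4 were lower (median 0.15). The 4 lower were 1 without HMGB2 1, 1 without vector 3 and 2 without HMGB2 2 or vector 2, while the 3 higher were 2 without vector 2 or vector 3 and 4 without vector 1. Higher were the coactivators of mitochondrial gene programmes Ppargc1a, with 30.2 ± 2.69 CPM with HMGB2 and 13.6 ± 2.06 CPM with the vector (SD, n = 3 each; log2 fold change 1.15, edgeR adjusted p = 0.000205), and Ppargc1b (1.28, adjusted p = 0.00594), and the nuclear receptor Esrra (0.38, adjusted p = 0.0132). Lower were Tfb2m, the factor with which the mitochondrial RNA polymerase opens its promoters, with 12.3 ± 0.928 CPM with HMGB2 and 16.4 ± 0.478 CPM with the vector (-0.42, adjusted p = 0.0167), Gabpa, a subunit of nuclear respiratory factor 2 (-0.32, adjusted p = 0.00896), and its partner Gabpb1 and the coactivator Pprc1. The calls on Tfb2m, Gabpa and Esrra ended in 3, 2 and 3 of 17 alternatives.

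Of 41 genes for processing and stability of mitochondrial RNA, 6 were higher and 4 lower (median 0.03), both close to the shares of 14.4% and 10.8% over all genes. The 6 higher were 3 without HMGB2 2, HMGB2 3 or vector 3, and 4 without HMGB2 1 or vector 2. The 4 lower were 1 without HMGB2 1 or HMGB2 2 and 2 without vector 3. Pnpt1, a ribonuclease of the RNA degradosome (0.57, edgeR adjusted p = 0.000688), Fastkd1, an RNA-binding protein (0.59, adjusted p = 0.00335), and Mrm1, which methylates the 16S rRNA (0.67, adjusted p = 0.00731), were higher. Elac2, which cuts the 3' end of tRNAs out of precursors, was lower, with 31.4 ± 4.54 CPM with HMGB2 and 43.6 ± 2.29 CPM with the vector (SD, n = 3 each; -0.47, adjusted p = 0.0124), as was Pde12, which shortens poly(A) tails (-0.34, adjusted p = 0.00830). The calls on Elac2 and Pde12 ended in 2 and 1 of 17 alternatives, while those on Pnpt1, Fastkd1 and Mrm1 held in all 17.

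Of 23 genes on the list for replication and maintenance of mtDNA, 6 were higher and 2 lower (median 0.17), where 14.4% and 10.8% of all genes were. This list also holds genes with an indirect link, such as Mfn2, Slc25a4, Suclg1 and Sucla2. With 1 library left out, 4 or 5 were higher and 1 or 2 lower. Mfn2, which fuses outer membranes, had the smallest p (0.97, edgeR adjusted p = 2.17e-05), and Slc25a4, the ADP/ATP carrier of muscle (0.56), Suclg1 (0.54) and Sucla2 (0.43, a call that ended in 4 of 17 alternatives), subunits of succinyl-CoA synthetase, were also higher, while Atad3a, a membrane ATPase bound to nucleoids, was lower (-0.47, adjusted p = 0.00320). Of 32 genes for translation of mtDNA messages, 10 were higher and 3 lower (median 0.22), the lower again near the share over all genes. With 1 library left out, 7 to 10 were higher and 1 or 2 lower. They included Taco1, the translational activator of mt-Co1 (0.86, adjusted p = 0.000455), Letm1 (0.50) and the tRNA synthetases Ears2 (0.63), Fars2 (0.65) and Iars2 (0.34). The count of 25 higher among 112 was 16 without vector 3 and 17 to 27 without any other 1 library. The count of 13 lower was 4 and 5 without HMGB2 1 and 2, 7 without vector 2 or 3, and 9 and 11 without vector 1 and HMGB2 3. Over all 15429 genes, 1558 to 2495 were higher and 869 to 1918 lower with 1 library left out.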

How the data were processed

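Bulk RNA sequencing libraries of 3 HMGB2 and 3 vector samples were analysed from 2 tables that the authors deposited, one of raw counts per gene and one of FPKM. Per the submitters' processing notes, the tools were StringTie 1.3.3b, HTSeq 0.6.1, HISAT2 2.2.1 and FastQC 0.10.1 and the build was mm10 (roles not given). Strand setting, read length and treatment of reads with several matches were not found in the sources used. The deposited FPKM values were the counts rescaled by gene length and library total (implied over listed length 0.9999 to 1.0002 in 15 mtDNA genes). Columns were matched to samples by group abbreviation and replicate number, and 0 columns were left out.

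The test across genes was that of edgeR 4.0.16 (R 4.3.3): filterByExpr with a minimum count of 10 and a minimum total of 15, TMM scaling with factors of 0.986 to 1.016, a robust quasi-likelihood F-test with the group as the only term, Benjamini-Hochberg over 15429 genes, and a threshold of 0.05. Standard errors are the log2 fold change over the root of F, and CPM use TMM-scaled library sizes. DESeq2 1.42.0 and limma 3.58.1 (log2 of FPKM plus a pseudocount of 0.1 or 1) were alternatives, and the test was checked on simulated data. Single values per library were compared by exact permutation over samples.

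Sequence sharing is the percentage of a gene's 100-base windows found in any other GENCODE M21 transcript, on either strand. Positions and sequences of mtDNA and nuclear copies are from GENCODE M21, since positions of nuclear genes in the table differ from it. All mtDNA protein and rRNA genes and tRNA genes with a mean of at least 10 counts are named. For each nuclear list, those past the threshold are named by p, smallest first and at most 5, or the 2 of highest mean if 0 or 1 passed; of copies, the 8 with the highest mean. Gabpb1, Pprc1, Gm13339 and Gm13341 fall outside this rule and were named after their values were seen. Members and lists were chosen with earlier results of these data known. The order along mtDNA and the sum of genes with their copies were added after seeing the data.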

Additional observations from a re-analysis of the deposited data

How the results depend on the processing

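The 17 tested mtDNA genes had 288 results under other settings, of which 255 kept direction and side of the threshold, 18 lost a call, 9 gained one and 6 changed sign. These 6 were of mt-Nd1 (-0.0067 with DESeq2 and with its scaling in edgeR, -0.016 without HMGB2 3 and -0.024 without vector 3, with a range of -0.024 to 0.032 with 1 library left out), mt-Co1 (0.00086 without vector 2, the highest, to -0.051 without vector 1), and mt-Nd3 (0.36 with copies added). Of other named genes, the sign changed for Gm13340 (-0.013 with DESeq2, -0.0069 with its scaling and without vector 2, -0.040 and -0.024 with limma on FPKM at pseudocounts of 0.1 and 1, -0.041 with the replicate block, -0.091 without vector 3 and a range of -0.32 without HMGB2 1 to 0.22 without HMGB2 2), Gm13341 (-0.019 without vector 2 to 0.62 without HMGB2 2) and Cox4i1 (-0.015 without HMGB2 3). The 4 lower mtDNA genes were 1 with limma on FPKM at either pseudocount and 1 to 5 with 1 library left out. They were 9 without vector 1 and HMGB2 3, with mt-Nd5, by which these libraries were singled out, among the 9. The 1 higher was 2 without vector 1 and HMGB2 3. Of the listed nuclear genes linked to mtDNA, the 25 higher were 16 to 27 and the 13 lower 4 to 11 with 1 library left out. The lower were 8 with limma at either pseudocount. The difference in the share of mtDNA protein genes was -0.773 percentage points of summed FPKM, against -0.285 of counts, and -0.355 to -0.197 with 1 library left out; in the first, counts are divided by gene length. The 4 members of non-overlapping composition were 4 to 7 with 1 library left out and 8 without vector 1 and HMGB2 3. Replicate numbers are shared between groups, and the correlations of deviations of same-numbered libraries were -0.32, 0.23 and -0.37. These values cannot decide whether same-numbered libraries are paired, since vector 1 and HMGB2 3, which stand apart, carry different numbers. The labels do not state it either. With the replicate block, 1 mtDNA gene was higher and 1 lower. Of the listed nuclear genes linked to mtDNA, 15 were higher and 3 lower with the block. Of all genes, 1459 were higher and 754 lower. Except where a step itself states it, the cause was not tested. The genes mt-Nd3, mt-Nd4l, mt-Atp8 and mt-Tc had means under 100 counts, which limits their precision.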
